A study of Mus musculus with 12 samples.

Results

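The region described here is a 220 kb window of mouse chromosome 11, on the mm9 build, that holds the CC chemokine genes Ccl5, Ccl9, Ccl6, Ccl3 and Ccl4. Its members are the 60 binding hotspots with at least 1 bp in that window. All lists together held 50455 hotspots, the 765 of the input DNA itself included. Immunoprecipitated hotspots that overlapped a hotspot of the input DNA had been removed from that number. A hotspot is a stretch of genome enriched for sequence tags in 1 library. The window was chosen by position, and with the densities and z scores of these libraries already known, so the number and strength of its hotspots are given as a description and are not tested. Overlapping hotspots of the immunoprecipitated libraries were joined into 13 regions, numbered here from 1 to 13 along the chromosome.

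The cells were bone-marrow-derived macrophages of C57BL/6J background, primary cells grown from mouse marrow, stimulated with lipopolysaccharide (LPS), an outer-membrane component of Gram-negative bacteria. RelA was immunoprecipitated at 0, 3 and 8 h of LPS from wild-type cells and, as a separate series, from cells labelled littermate control; Ikaros was immunoprecipitated at 0, 3 and 8 h from wild-type cells; and input DNA came from untreated wild-type cells. Each group is 1 library, so no spread between replicates exists and no difference below was tested; how many animals stand behind a library is not given in the sources used here. Between the wild-type and littermate series, the genotype label, the animals and the library preparation cannot be told apart. For 6 samples the file name carries a time other than the label's, and at 0 h both wild-type files, RelA and Ikaros, are named for 3 h alone. Times were taken from the labels, and every statement about time rests on that choice. The lists hold binding and no expression, so the cell type could not be checked against its markers, and no immunoprecipitation from Ikzf knockout cells was analysed here.

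CC chemokines are small secreted proteins that draw leukocytes to inflamed tissue. Ccl5 (RANTES), Ccl3 (MIP-1 alpha) and Ccl4 (MIP-1 beta) recruit T cells, monocytes and natural killer cells. Ccl9 and Ccl6 are chemokines of mouse myeloid cells. RelA is the transactivating subunit of the commonest NF-kB dimer: inhibitor proteins hold it in the cytoplasm of resting macrophages until signalling from Toll-like receptor 4, the LPS receptor, releases it to the nucleus. Ikaros, encoded by Ikzf1, is a zinc finger protein of blood cells that binds GGGAA-containing sites and can recruit complexes that remodel chromatin.

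In the RefSeq gene order, which was taken from the GRCm38.p6 build, the members follow each other with increasing coordinate as Ccl5, Ccl9, Ccl6, Ccl3 and Ccl4. Gene positions on mm9 were not used here, so no hotspot below is assigned to a gene, and the ends of the window are named by gene order alone, with Ccl5 towards the low-coordinate end and Ccl3 and Ccl4 towards the high-coordinate end. Promoter sequences of 3 of the 5 members, Ccl9, Ccl6 and Ccl3, were matched. They are shown because both immunoprecipitated factors bind sites with known letters. Each runs 5′ to 3′ on the gene's own strand, the minus strand of chromosome 11 (RefSeq, GRCm38.p6), from 250 bases before the start of the gene to 50 bases after it, and the capitals mark matches to the 10-base NF-kB motif and to GGGAA, searched on both strands.
Ccl9: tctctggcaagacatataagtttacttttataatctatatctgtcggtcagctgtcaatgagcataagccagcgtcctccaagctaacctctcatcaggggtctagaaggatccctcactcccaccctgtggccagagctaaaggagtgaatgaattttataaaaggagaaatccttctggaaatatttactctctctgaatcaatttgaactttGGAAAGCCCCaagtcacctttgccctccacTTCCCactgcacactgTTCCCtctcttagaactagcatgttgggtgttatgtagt
Ccl6: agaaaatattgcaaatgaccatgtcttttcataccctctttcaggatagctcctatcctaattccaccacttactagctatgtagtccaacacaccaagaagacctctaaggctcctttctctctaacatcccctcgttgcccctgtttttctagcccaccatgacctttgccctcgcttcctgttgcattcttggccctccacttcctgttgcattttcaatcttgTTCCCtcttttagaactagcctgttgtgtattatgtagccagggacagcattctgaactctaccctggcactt
Ccl3: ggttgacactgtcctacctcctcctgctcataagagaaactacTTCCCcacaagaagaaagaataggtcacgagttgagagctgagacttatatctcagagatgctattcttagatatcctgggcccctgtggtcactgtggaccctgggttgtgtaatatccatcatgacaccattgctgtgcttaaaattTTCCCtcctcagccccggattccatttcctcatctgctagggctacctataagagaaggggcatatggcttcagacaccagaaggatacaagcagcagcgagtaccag
The Ccl9 promoter held 1 match to the NF-kB motif, on the opposite strand and beginning 35 bases before the start of the gene, and 2 matches to GGGAA, none of which overlapped it. The Ccl6 promoter held 1 GGGAA match and the Ccl3 promoter held 2, and neither held a match to the NF-kB motif in these 300 bases. Among all 32851 promoters of that length, 8.46% held the NF-kB motif and 62.7% held GGGAA. Aligned to each other, Ccl9 and Ccl6 were 71.1% identical, Ccl9 and Ccl3 59.3%, and Ccl6 and Ccl3 62.0%. These matches describe letters and are not binding sites measured here.

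By the labelled times, 58 of the 60 hotspots came from LPS-treated cells. Over 0, 3 and 8 h wild-type RelA gave 0, 12 and 8, littermate RelA gave 1, 16 and 3, and Ikaros gave 1, 7 and 12. The lists these came from held 47, 4972 and 1878 hotspots for wild-type RelA, 5805, 9999 and 5231 for littermate RelA, and 853, 7109 and 13796 for Ikaros. Most hotspots of the whole lists thus came from LPS-treated cells too. The 0 of 47 in wild-type RelA at 0 h allows a share of up to 6.38%, and the share at 3 h was 0.241%. So short a list therefore says little about whether RelA bound in the window at 0 h. The window also held 0 of the 765 input hotspots, which allows up to 0.392%. Depth in reads is unknown, and lists differ in their lowest z score, between 8.64 and 10.9, so a hotspot that is not listed is only below the threshold of that library. Region 10 was the only region listed at 0 h in any library, so for the others each series over 0, 3 and 8 h is given by its values at 3 and 8 h.

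After LPS the window held more hotspots per Mb than the genome as a whole. Wild-type RelA at 3 h had 54.5 hotspots per Mb in the window and 1.88 over the genome, and littermate RelA at 3 h had 72.7 and 3.79. Ikaros had 31.8 and 2.69 at 3 h, and 54.5 and 5.22 at 8 h. A wide site listed in pieces counts more than once. By covered length, wild-type RelA at 3 h took up 8.21% of the window and 0.107% of the genome, and littermate RelA at 3 h 5.27% and 0.144%. Ikaros took up 8.02% and 0.154% at 3 h, and 8.79% and 0.309% at 8 h. Of 12001 windows of 220 kb tiled over the genome, at least as many hotspots stood in 5 for wild-type RelA at 3 h (0.0417%) and in 3 at 8 h (0.0250%), in 4 for littermate RelA at 3 h (0.0333%) and in 323 at 8 h (2.69%), and in 104 for Ikaros at 3 h (0.867%) and in 34 at 8 h (0.283%). The single hotspots of 0 h were matched or passed in 32.5% of windows for littermate RelA and in 6.04% for Ikaros. The median highest density of the window's hotspots, on the deposited scale, was 45.7 against 18.5 for the whole list in wild-type RelA at 3 h, 32.0 against 25.5 at 8 h, 20.0 against 4.11 in littermate RelA at 3 h, 31.3 against 4.56 at 8 h, 54.5 against 22.0 in Ikaros at 3 h and 43.2 against 23.0 at 8 h. At 0 h the only Ikaros hotspot had 20.4, against a list median of 21.6, and the median z score of wild-type RelA at 8 h was 15.2 in the window, against 16.0. These values were known when the window was chosen.

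**Figure D1:**
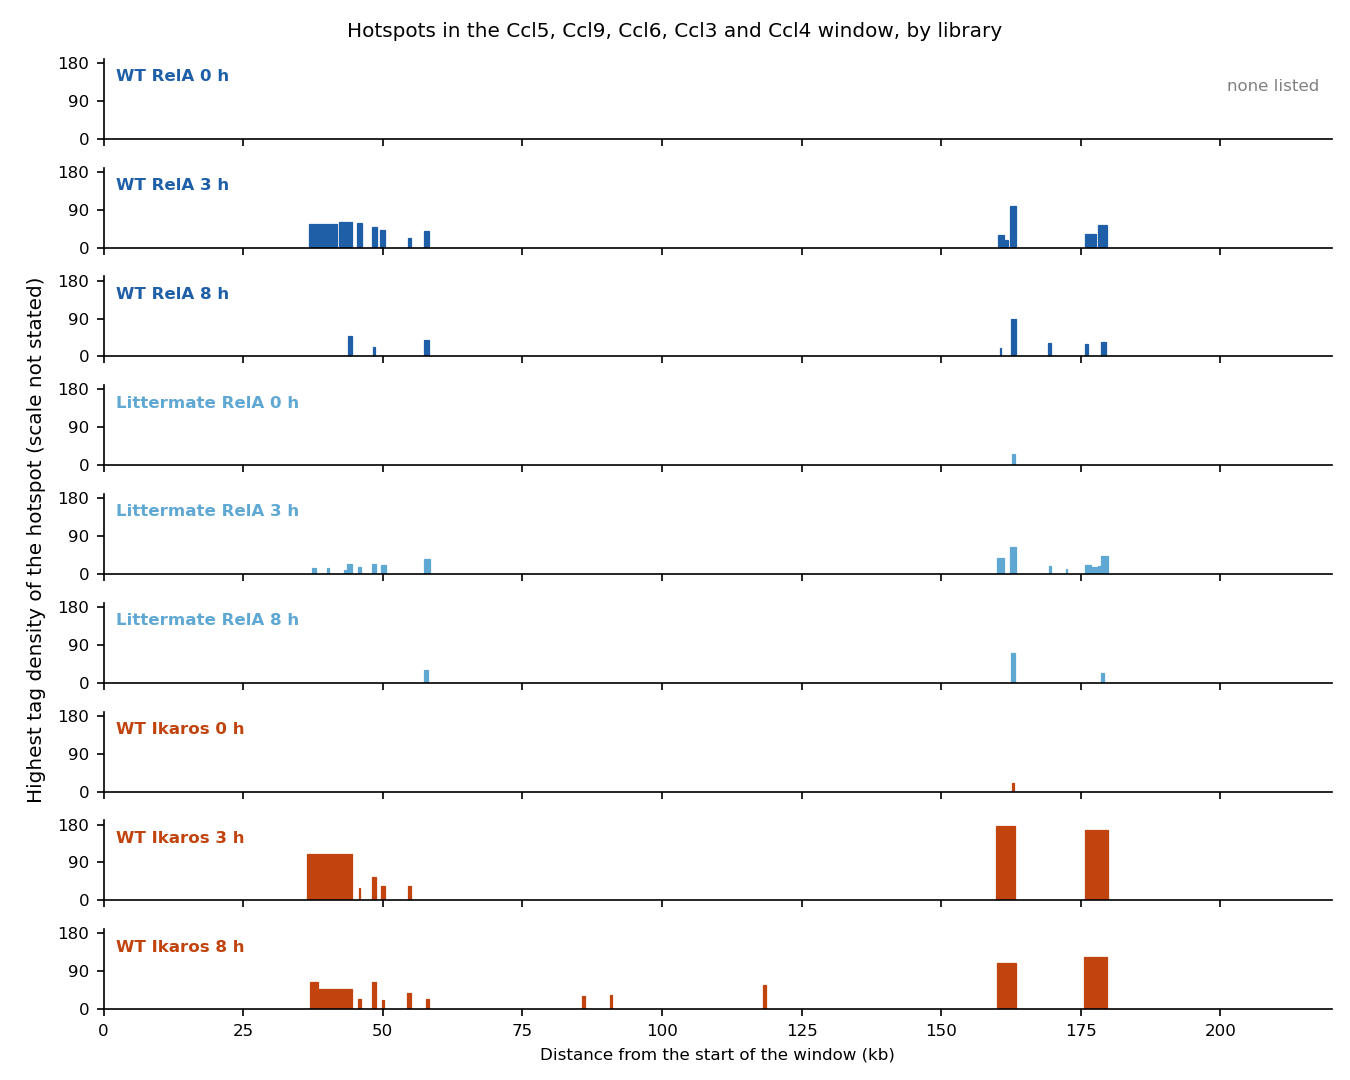
Hotspots of the 9 immunoprecipitated libraries along the 220 kb window, by distance from the window's start in kb, with 1 row per library. Hotspots crowd towards both ends of the occupied stretch, and the wild-type RelA 0 h row is empty.

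The 13 regions fell into a low-coordinate group, regions 1 to 6 over 21.9 kb, a middle group, regions 7 to 9 over 33.0 kb, and a high-coordinate group, regions 10 to 13 over 20.0 kb; this grouping was made after the values were seen. RelA hotspots were listed in 10 regions and Ikaros hotspots in 11, with 8 regions in both, 2 with RelA alone (regions 11 and 12) and 3 with Ikaros alone (regions 7, 8 and 9). No RelA hotspot of either series lay in the 101 kb between regions 6 and 10. All 3 Ikaros hotspots in that stretch were listed only at 8 h. They were region 7 (chr11:83385674-83386143) with a highest density of 31.6, region 8 (chr11:83390776-83391059) with 33.6 and region 9 (chr11:83418069-83418693) with 58.3. Region 9 ranked 475 of 13796 by density. By z score regions 7, 8 and 9 ranked 10279, 12161 and 4130. Their z scores were 11.7, 10.5 and 18.3, against a lowest of 9.75 in that list.

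**Figure D2:**
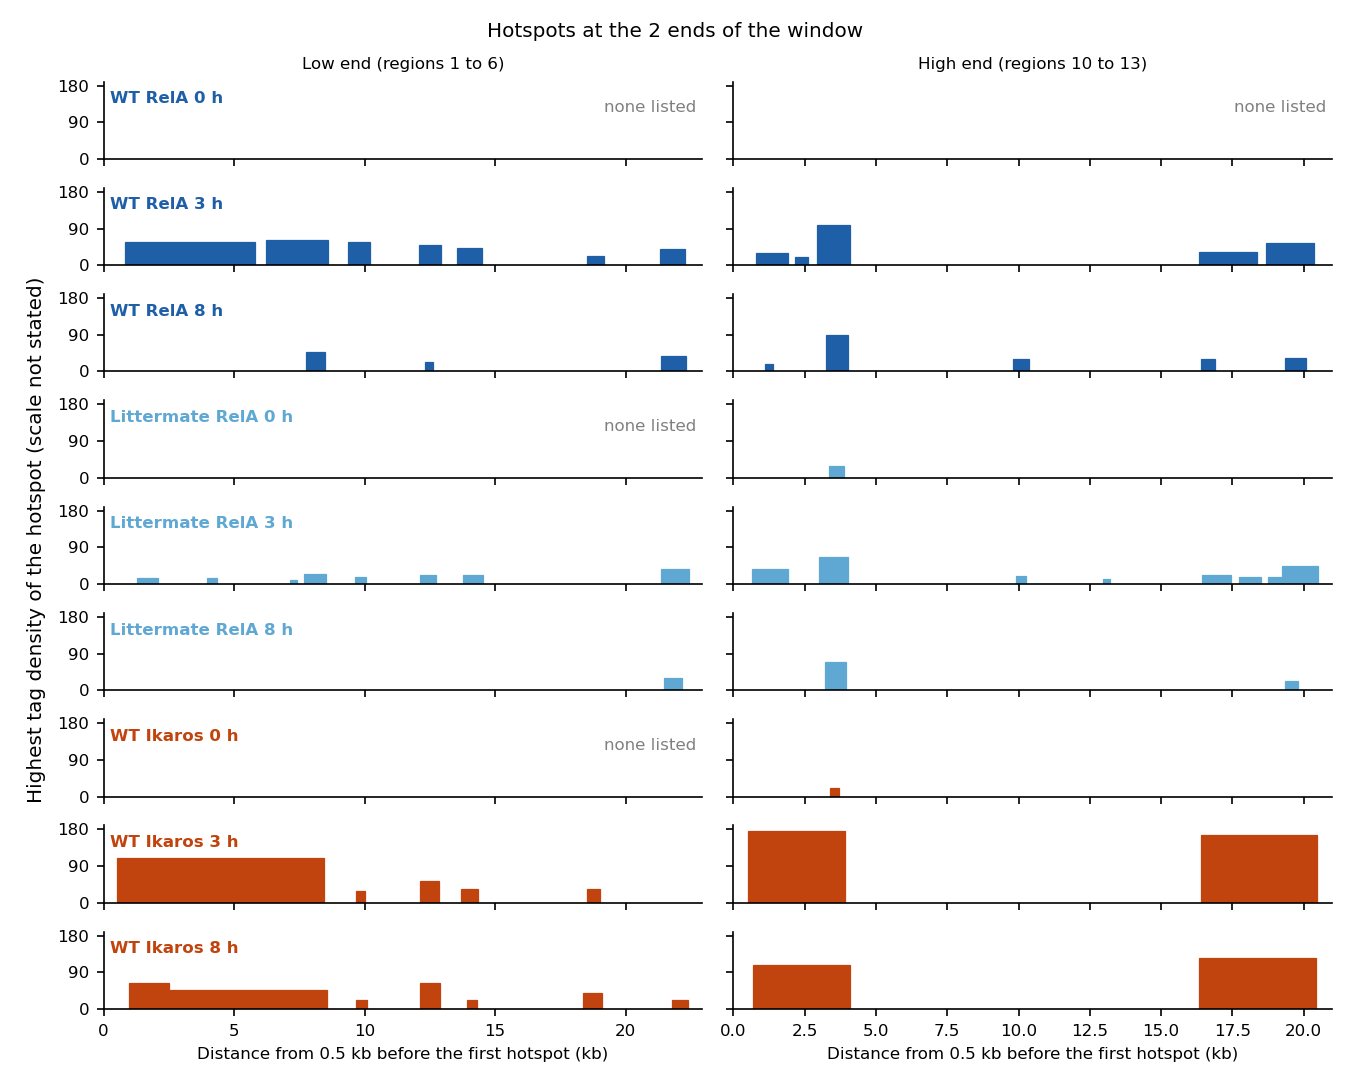
Highest tag density of each hotspot, on the deposited scale, for the low-coordinate and high-coordinate groups of regions. Distance in kb is counted separately in each panel, from just before its first hotspot. Each bar spans the hotspot's width and is drawn at that hotspot's highest density. The tallest bars are the Ikaros hotspots of regions 10 and 13 at 3 h, at 176 and 166.

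The broadest hotspot of the window lies in region 1, chr11:83336475-83344568, which spans 8.09 kb and held 10 hotspots of 5 libraries. It was an Ikaros hotspot at 3 h, 7926 bp wide (chr11:83336475-83344401), with a highest density of 110, a mean density of 31.9 and a z score of 67.9. It was the third widest of 7109 hotspots in its list, and ranked 25 by z score and 27 by density. At 8 h Ikaros was listed over nearly the same stretch as a pair of hotspots 36 bp apart. The one at low coordinate was 1522 bp wide with a highest density of 63.8 and a z score of 38.9, and the other was 6004 bp wide, rank 3 of 13796 by width, with 47.3 and 24.8. Region 1 was therefore a wide Ikaros domain at both times after LPS, with no Ikaros hotspot listed at 0 h.

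The length of region 1 covered by RelA differed between libraries. It was 7338 bp in wild-type cells at 3 h, near the 7926 and 7526 bp of Ikaros at 3 and 8 h. It was 722 bp in wild-type cells at 8 h and 2287 bp in littermate cells at 3 h. Wild-type RelA at 3 h was listed as 2 hotspots 452 bp apart. The first was 4982 bp wide, the second widest of 4972, with a highest density of 55.7, a z score of 37.2 and rank 248 by z score. The second was 2356 bp wide, rank 14 by width, with 61.3, a z score of 38.5 and rank 219. At 8 h wild-type RelA was listed only at the high-coordinate edge, as 1 hotspot of 722 bp (chr11:83343730-83344452) with a highest density of 47.8, a z score of 26.9 and rank 334 of 1878. Littermate RelA at 3 h was listed as 4 short hotspots of 252 to 846 bp with highest densities of 9.19 to 23.5, the highest of them (chr11:83343665-83344511) at that same edge, and littermate RelA was not listed in region 1 at 0 or 8 h.

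Regions 2 to 5 were smaller, about 1 kb or less each. At region 2 (chr11:83345344-83346185) the highest density was 57.8 in wild-type RelA at 3 h, 17.0 in littermate RelA at 3 h, and 29.6 and 23.2 in Ikaros at 3 and 8 h. At region 3 (chr11:83348038-83348894) it was 48.8 and 22.4 in wild-type RelA at 3 and 8 h, 22.9 in littermate RelA at 3 h, and 54.5 and 63.9 in Ikaros at 3 and 8 h. On the deposited scale the Ikaros value at region 3 was thus higher at 8 h than at 3 h, with a log2 ratio of 0.23, which is below the median of 0.36 over all Ikaros hotspots shared by these times, and the wild-type RelA value was lower. At region 4 (chr11:83349513-83350519) it was 42.7 in wild-type RelA and 22.2 in littermate RelA at 3 h, and 35.1 and 21.3 in Ikaros at 3 and 8 h. At region 5 (chr11:83354350-83355134) it was 21.8 in wild-type RelA at 3 h and 33.7 and 39.1 in Ikaros at 3 and 8 h. Littermate RelA was not listed at region 5 at any time, and RelA was not listed at regions 2, 4 and 5 at 8 h in either series. Ranks by z score were mixed. Wild-type RelA at 3 h ranked 313, 633 and 728 of 4972 at regions 2, 3 and 4, but 3469 at region 5. Low in their lists were Ikaros at region 2 at 3 h (6103 of 7109) and at region 4 at 8 h (12686 of 13796). Wild-type RelA at region 3 at 8 h was low too (1717 of 1878).

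Region 6 (chr11:83357306-83358404) differed in the times at which each factor was listed. RelA was listed in both series at both times after LPS, at 39.6 and 38.4 in wild-type cells at 3 and 8 h and at 36.2 and 31.3 in littermate cells, with centres that lay within 96 bp of each other in the 4 libraries. Ikaros was listed there only at 8 h, at 23.5, rank 10750 of 13796 by z score. At 3 h it was only below the threshold of its library, so no order of binding is shown. Region 6 was the only member of the wild-type RelA 3 h list that met no Ikaros hotspot of 3 h, and its RelA densities lay between 31.3 and 39.6 in all 4 libraries.

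Region 10 (chr11:83459848-83463444), in the high-coordinate group, held the strongest RelA hotspots of the window and was listed in 8 of the 9 immunoprecipitated libraries. In wild-type RelA the strongest hotspot had a highest density of 97.7 at 3 h, rank 17 of 4972 by density and 60 by z score, and 89.3 at 8 h, rank 30 of 1878 and 72 by z score. In littermate RelA it had 27.6 at 0 h, rank 102 of 5805, 65.2 at 3 h, rank 30 of 9999, and 69.8 at 8 h, rank 27 of 5231. Littermate RelA at 0 h was thus below the other 2 littermate libraries but within the upper part of its own list by density. By z score, at 15.0, it ranked 1514 of 5805, while the littermate hotspots of 3 and 8 h ranked 69 and 79.

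Ikaros at region 10 had a highest density of 20.4 at 0 h, 176 at 3 h and 109 at 8 h. The hotspot of 0 h was 314 bp wide with a z score of 11.2 and rank 635 of 853, while those of 3 and 8 h were 3423 and 3426 bp wide with z scores of 83.0 and 60.1, ranks 13 and 75. The centres of the strongest RelA hotspot in each of 5 libraries and of the Ikaros hotspot at 0 h spanned 128 bp, so the resting hotspots lay on the same short stretch as the strongest RelA hotspots after LPS. Wild-type RelA had 2 weaker hotspots in region 10 at 3 h, with 29.6 and 19.0, and 1 at 8 h, with 19.4, and littermate RelA had 1 at 3 h, with 37.1; the wide Ikaros hotspots of 3 and 8 h overlapped these at their own times.

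Region 13 (chr11:83475662-83479844) spans 4.18 kb and held the Ikaros hotspots with the highest z scores of the window. Ikaros had a highest density of 166 at 3 h over 4073 bp, z score 91.5 and rank 10 of 7109, and 125 at 8 h over 4128 bp, z score 76.1 and rank 27 of 13796. RelA was spread over several hotspots within that width. The strongest had 53.5 and 33.4 in wild-type cells at 3 and 8 h, and 43.6 and 22.1 in littermate cells at 3 and 8 h. The others had 31.8 at 3 h and 29.8 at 8 h in wild-type RelA, and 17.1 to 21.3 in the 3 of littermate RelA at 3 h. No library of 0 h was listed.

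Regions 11 and 12 were listed for RelA alone. Region 11 (chr11:83469170-83469699) had 30.6 in wild-type RelA at 8 h and 18.8 in littermate RelA at 3 h, with centres 1 bp apart, and was in no other library. Region 12 (chr11:83472319-83472570) was listed only in littermate RelA at 3 h, with 12.8 and a z score of 9.08, rank 9451 of 9999. Regions 1 and 13 are the outermost of the window; region 1 begins 36.5 kb from its low-coordinate edge, and region 13 ends 180 kb from that edge. Outside the window, the nearest hotspot at higher coordinate was chr11:83530516-83531128, 10.5 kb away, with 34.3 in wild-type RelA at 3 h, followed by chr11:83550388-83551328 with 54.6. At lower coordinate the nearest in wild-type RelA at 3 h was 214 kb away, with 18.4, and Ikaros there had 27.8 at 3 h and 51.6 at 8 h.

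**Figure D3:**
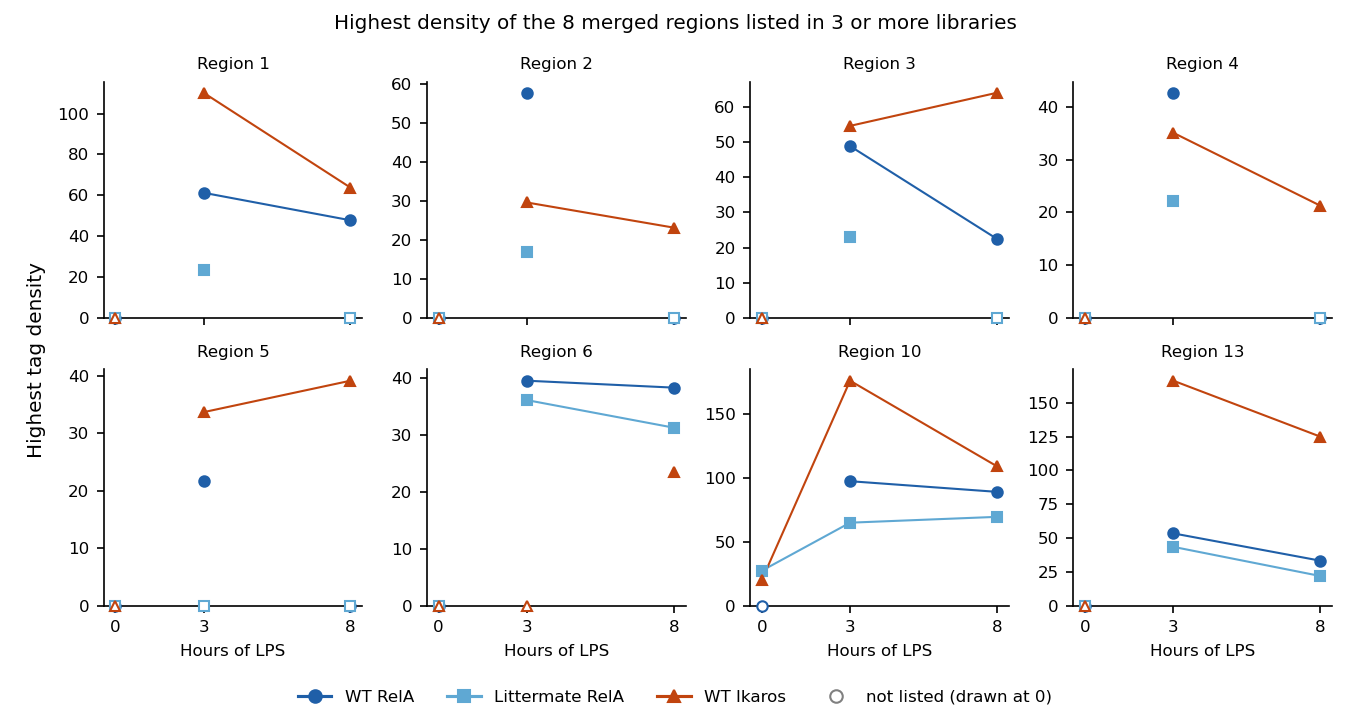
Highest tag density, on the deposited scale, against hours of LPS for the 8 regions listed in at least 3 libraries, with filled markers for listed values and open markers at 0 for libraries in which the region is not listed. Lines join listed values of neighbouring times. Region 10 is the only one with filled markers at 0 h, and at regions 3 and 5 the Ikaros line climbs between 3 and 8 h on the deposited scale.

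Almost none of these sites was listed before LPS. None of the 12 wild-type RelA hotspots of 3 h overlapped a hotspot of 0 h, against 0.744% of the whole list, and 1 of 16 littermate hotspots did (6.25%), against 7.95%. Both window values are near those of the lists, which for wild-type RelA held only 47 hotspots at 0 h.

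Part of the RelA hotspots of 3 h were listed again at 8 h. In wild-type cells 7 of 12 were (58.3%, exact Clopper-Pearson 95% interval 27.7 to 84.8), against 31.3% of the whole list, which lies within that interval. In littermate cells 3 of 16 were (18.8%, interval 4.05 to 45.6), against 14.4%. In the other direction 7 of 8 wild-type hotspots of 8 h were also listed at 3 h (87.5%), against 83.9%, and 3 of 3 littermate hotspots (100%, interval 29.2 to 100), against 27.6%. The difference between the series was not tested. List shares here and below are over hotspots of all densities, and none was taken at the density of the window's hotspots. The gap in density was widest in the littermate lists, so their list shares come mostly from much less dense hotspots. Intervals here and below cover counting error only, and neighbouring hotspots are not independent. With a reciprocal overlap of at least 50% in place of 1 bp, the share kept was 16.7% for wild-type hotspots of 3 h, against 27.8% of the list, and 25.0% in the other direction, against 73.7%, so both window shares were then below those of the list. The median width of the wild-type RelA members was 625.5 bp at 8 h, against 1036.5 bp at 3 h.

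The Ikaros sites of 3 h were all found again later. All 7 hotspots of 3 h were listed at 8 h (100%, interval 59.0 to 100), against 82.1% of the list, and 8 of 12 of 8 h had been listed at 3 h (66.7%, interval 34.9 to 90.1), against 42.2%; both list shares lie within the intervals. The 4 Ikaros hotspots listed at 8 h and not at 3 h were those of regions 6, 7, 8 and 9.

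By an overlap of 1 bp, most RelA hotspots of 3 and 8 h in both series met an Ikaros hotspot of the same time. Most Ikaros hotspots met wild-type RelA at 3 h, but at 8 h most did not. Of the wild-type RelA hotspots of 3 h, 11 of 12 overlapped an Ikaros hotspot of 3 h (91.7%, interval 61.5 to 99.8), against 54.0% of the whole list. Of littermate RelA hotspots of 3 h, 13 of 16 did (81.2%, interval 54.4 to 96.0), against 12.6%. That list share is over hotspots with a median density of 4.11, against 20.0 in the window. At 8 h these littermate medians were 4.56 and 31.3. The share on Ikaros at 8 h was 7 of 8 in wild-type RelA (87.5%), near the 80.5% of the list, and 3 of 3 in littermate RelA (100%, interval 29.2 to 100), against 15.8%. Conversely, all 7 Ikaros hotspots of 3 h met a wild-type RelA hotspot (100%, interval 59.0 to 100), against 37.1%, and 5 of 12 of 8 h did (41.7%, interval 15.2 to 72.3), against 10.8%. Several RelA hotspots share 1 wide Ikaros hotspot in regions 1, 10 and 13. With reciprocal overlap of at least 50%, wild-type RelA lay on Ikaros at 33.3% of its hotspots at 3 h, against 42.1% of the list, and at 12.5% at 8 h, against 61.4%, so both shares were below the list under that rule. Littermate RelA lay on Ikaros at 18.8% at 3 h, against 10.1%, and at 33.3% at 8 h (1 of 3), against 11.7%. Ikaros lay on wild-type RelA at 57.1% at 3 h, against 29.4%, and at 8.33% at 8 h, against 8.36%. The greater overlap of wild-type RelA with Ikaros in the window than over the list at 3 h thus holds for an overlap of 1 bp and not for this one.

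**Figure D4:**
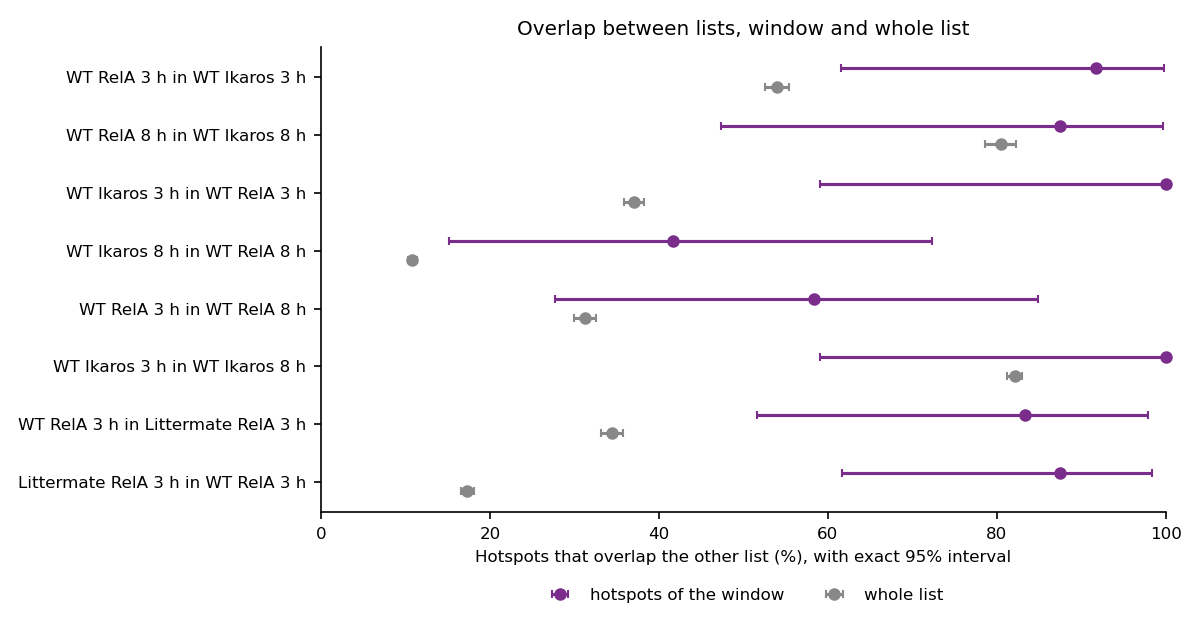
Percent of hotspots of one list that overlap a hotspot of another by at least 1 bp, in the window with exact 95% intervals and over the whole list. By this overlap the wild-type RelA share on Ikaros at 3 h is 91.7% in the window and 54.0% over the list.

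At 3 h most sites of either RelA series were also listed in the other. In the window, the littermate list held 10 of the 12 wild-type RelA hotspots of 3 h (83.3%, interval 51.6 to 97.9), against 34.4%, and the wild-type list held 14 of the 16 littermate ones (87.5%, interval 61.7 to 98.4), against 17.3%, although that second share was 43.8%, against 14.9%, with reciprocal overlap of at least 50%. These list shares too are over hotspots of all densities. At 8 h the littermate list held 3 of the 8 wild-type ones (37.5%), near the 44.0% of the list. The regions listed in both series at both 3 and 8 h were 6, 10 and 13. Of the 10 shared pairs at 3 h, 1 had a lower highest density in wild-type than in littermate cells, against 17.3% of 1712 pairs over the lists. The median log2 ratio of wild-type to littermate density was 0.76 in the window, with a range of -0.32 to 1.89, and 0.48 over the lists.

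The wild-type RelA hotspots listed at both 3 and 8 h were less dense at 8 h. All 7 of them had a lower highest density at 8 h than at 3 h, with log2 ratios of 8 h to 3 h between -1.12 and -0.05 and a median of -0.36. Over all 1556 shared hotspots the median was 0.04 and 47.0% were lower. Among hotspots in the densest 10% of the 3 h list, a group added after the values were seen, 5 of 5 in the window were lower, against 68.4% over the list. The densities' scale is not stated, so the median over the list is the level to read each ratio against. Region 11, listed in wild-type RelA at 8 h alone, has no ratio.

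In littermate RelA 2 of 3 were lower at 8 h, with a median of -0.21, against 36.8% of the list and a list median of 0.17, and in the densest 10% 2 of 3 were lower, against 50.1%. In Ikaros 5 of 7 were lower, between -0.79 and 0.23 with a median of -0.41, against 23.2% of 5840 shared hotspots and a list median of 0.36. In the densest 10% of the Ikaros list 3 of 4 were lower, against 40.8%. The 2 Ikaros hotspots with a higher deposited density at 8 h were those of regions 3 and 5, with log2 ratios of 0.23 and 0.22. Both are below the list median of 0.36. All 7 Ikaros ratios, like all 7 of wild-type and all 3 of littermate RelA, thus lay below the median of their list. Hotspots in the densest 10% at 3 h had lower medians, of -0.0 in littermate RelA and 0.13 in Ikaros. Region 10 in littermate RelA, at 0.1, and region 3 in Ikaros, at 0.23, lay above these medians. The window's other hotspots in these densest groups, 2 in littermate RelA and 3 in Ikaros, lay below.

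**Figure D5:**
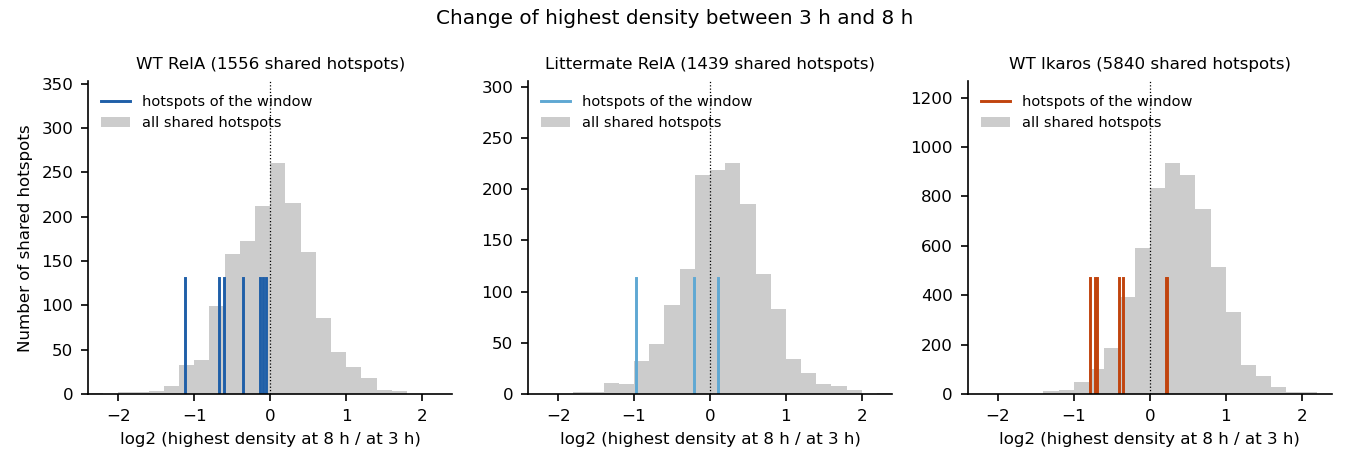
Log2 ratio of highest tag density at 8 h to that at 3 h for hotspots listed at both times, as a histogram over each whole list, with the window's hotspots as vertical marks whose height carries no value. All 7 wild-type RelA marks lie below 0, and 5 of the 7 Ikaros marks do.

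Set against the Ikaros hotspot it overlapped, RelA was the less dense at the wide regions 1, 10 and 13 at 3 h. The highest density of a wide Ikaros hotspot need not lie where RelA does. At that time the wild-type RelA density was lower than the Ikaros density at 5 of 7 shared sites, against 61.4% of 2634 over the lists, and the median log2 ratio of RelA to Ikaros was -0.63 against -0.21. The ratio was lowest at region 13, at -1.63, and was -0.85 at regions 1 and 10. RelA was the denser at region 2, at 0.96, and at region 4, at 0.28. At 8 h RelA was lower at 3 of 5, against 57.8%, with a median of -0.29 against -0.16. The lowest ratios were -1.90 at region 13 and -1.51 at region 3. At region 1 the ratio at 8 h was 0.01, because RelA, at 47.8, overlapped only the weaker of the Ikaros pair, at 47.3. The other of that pair reached 63.8, so this count depends on how Ikaros was split there. The antibodies differ and the scale of density is not stated, so these ratios order the sites within the window and do not compare amounts of bound protein.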

How the data were processed

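Chromatin immunoprecipitation sequencing of RelA and Ikaros in macrophages was analysed from 10 deposited hotspot lists, 1 per library, of 12 samples in the labels; the littermate and Ikzf knockout inputs were not analysed here. The build is mm9 per the submitters' processing notes (CASAVA is the tool they name), and coordinates are printed as deposited. Not given in the sources used here are the aligner, the hotspot caller, its threshold, any input subtraction and whether starts count from 0 or 1. The deposited values of a hotspot are its highest and mean tag density, which are signal on an unstated scale, and, per the file headers, a z score and a p-value. That p-value was not used. The z score ranks hotspots within a list and is no measure of change between libraries.

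Immunoprecipitated hotspots that overlapped an input hotspot by 1 bp or more were removed. This left 50455 of 50940, both with the 765 of the input list included, and touched none in the window. Ranks were taken within each remaining list. Hotspots that overlapped by 1 bp or more were called shared and were chained into regions. For ratios of times, and of RelA to Ikaros, each hotspot of the list below the line was paired with its densest partner; for wild-type over littermate RelA each wild-type hotspot was paired so. Shares carry exact Clopper-Pearson 95% intervals, and the limit for a count of 0 is 3 counts, both for counting error only. The genome was taken as 2641 Mb, from the highest end on each of 21 chromosomes. The alternatives were no removal of input hotspots, a reciprocal overlap of 50%, a highest density of at least 10, a common lowest z score of 10.9, and a window 50 kb wider on each side.

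The named genes are the 5 of the window, and the regions described in full are the broad one and every region listed in at least 3 libraries; the others were named to account for every member. The members and lists were chosen with earlier results of these data known. The overlap code was tested on simulated lists. Python 3.11.15, numpy 2.4.6, pandas 2.3.3, scipy 1.17.1, matplotlib 3.10.9, biopython 1.88 and bedtools 2.31.1 were used.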

Additional observations from a re-analysis of the deposited data

Results flagged for a closer look

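In 2 regions the deposited densities of the wild-type and littermate RelA series differed in sign between 3 and 8 h; each series has 1 library per time, so the difference was not tested. At region 10 the highest density at 8 h minus that at 3 h was -8.4 in wild-type cells and 4.6 in littermate cells. As log2 ratios these are -0.13 against a list median of 0.04 in wild-type cells and 0.10 against 0.17 in littermate cells. Both lie below the median of their list. Both hotspots were in the densest 10% of their 3 h list, where the medians were -0.27 and -0.0, and both ratios lie above those. At region 11 the difference was 30.6 in wild-type cells, listed there only at 8 h, and -18.8 in littermate cells, listed there only at 3 h. These 2 values set unlisted densities to 0, although an unlisted hotspot is only below the threshold of its library.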

How the results depend on the processing

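Of 171 recomputed values of 73 results, 162 stayed within 1.5 times of the reported count, or within the interval of the reported share, and 9 moved. Keeping the input hotspots could move none of its 73 values, since their removal touched no hotspot of the window. A density of at least 10 and a common lowest z score moved none of theirs. These alternatives are given for window values alone, so they do not show whether a window share still differed from that of its list. Requiring a reciprocal overlap of 50% moved 8 shares; the share of littermate RelA on Ikaros at 8 h, 33.3%, stayed within its wide interval. For wild-type RelA, 16.7% of hotspots of 3 h were found at 8 h and 25.0% of those of 8 h at 3 h. On Ikaros of the same time lay 33.3% of wild-type and 18.8% of littermate RelA hotspots of 3 h and 12.5% of wild-type RelA hotspots of 8 h. On RelA lay 57.1% of Ikaros hotspots of 3 h and 8.33% of 8 h, and 43.8% of littermate RelA hotspots of 3 h met wild-type RelA. Widening the window raised the littermate RelA 0 h count to 2. No paired analysis was possible because each group holds 1 library and the labels give no replicate numbers, and for the same reason no library could be left out. The depth in reads is unknown, and no list shows binding below its own threshold.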
